A study of Rattus norvegicus with 8 samples.

Results

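Bone morphogenetic protein 4 (Bmp4), the Smad proteins that carry signals of the TGF-beta superfamily to the nucleus, and the Id genes that respond to BMP signals were examined in rat retinas after optic nerve crush. The genes were chosen by name, as the spots whose gene name in the array files is Smad1, Smad2, Smad3, Smad4, Smad5, Smad7, Id1, Id2, Id3 or Bmp4 and which are not controls. Of these 10 genes, 9 had spots under that rule, with 29 of the 42877 spots on each array, and Smad3 had 0.

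BMP ligands bind pairs of receptor kinases, which phosphorylate Smad1 and Smad5 at their C-terminal end, whereas TGF-beta and activin receptors act on Smad2 and Smad3. The phosphorylated Smads join Smad4 and enter the nucleus, where Id1, Id2 and Id3, dominant negative partners of helix-loop-helix transcription factors, are among the classic targets of BMP signals. Smad7 is an inhibitory Smad that targets the receptors, and in the retina this pathway is known for patterning the eye and for responses of glia and retinal ganglion cells (RGCs) to injury.

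The study asked which transcripts differ between crushed and sham-operated retinas 2 weeks after surgery. Female Lister Hooded rats 8 weeks old either had the optic nerve clamped in forceps for 10 s, 3 mm behind the disc (ONC), or had open forceps placed around the nerve (CTR). RNA of 4 CTR and 4 ONC retinas was labeled with Cy3 or Cy5 and hybridized onto 4 Agilent 2-color arrays of a single slide, each array reading a pair of retinas. All levels below are log2 intensities after background subtraction and loess within the array, with 0 at the median spot of the channel.

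The labels and the study's methods disagree on which retina is in which channel. By the labels, CTR and ONC retinas of the same number share an array, all CTR retinas are in Cy5 and all ONC retinas are in Cy3, which leaves the effects of dye and condition confounded, and they cannot be told apart. By the methods, each array holds retinas of a single condition. Of 16 RGC markers listed, 13 were measured, and their median deviation from each gene's mean over the 8 channels was 1.01, 1.10, 1.20 and -1.17 over ONC1 to ONC4. The same median was -1.44, 1.09, -0.94 and -0.81 over CTR1 to CTR4. RGC markers were thus high in ONC1, ONC2, ONC3 and CTR2 and low in the other channels. CTR2 and ONC4 stood apart from the channels that share their label. Loss of RGCs is a known outcome of optic nerve crush, and the markers ran opposite to it, higher under the ONC label. Every difference below is one between labels, ONC minus CTR, and those of the 9 genes are given without CTR2 and ONC4 as well. In whole retinas, fewer cells of a type and less RNA per cell cannot be told apart.

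With the chosen processing, none of the 9 genes was called between the labels without the array as a block. With the block 1, Id3, was called, among 1254 of all genes. Median scaling in place of loess called Bmp4 without the block. The limma fit over 16307 genes called 81 of them at an adjusted p under 0.05, or 0.497%, and 0 of the 9. At an unadjusted p under 0.05 it had 3025 genes, or 18.6%, and again 0 of the 9. The 4 values of a label lay entirely above those of the other label for 2069 genes, or 12.7%, and for 0 of the 9. The median size of the difference was 0.11 for the 9 genes, 5 of them higher and 4 lower in the ONC channels, and 0.14 for all genes. Without ONC2 limma called 38 genes, and without any other single retina it called 0. Before adjustment, 2085 to 3252 genes were under 0.05 in these fits.

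**Figure D1:**
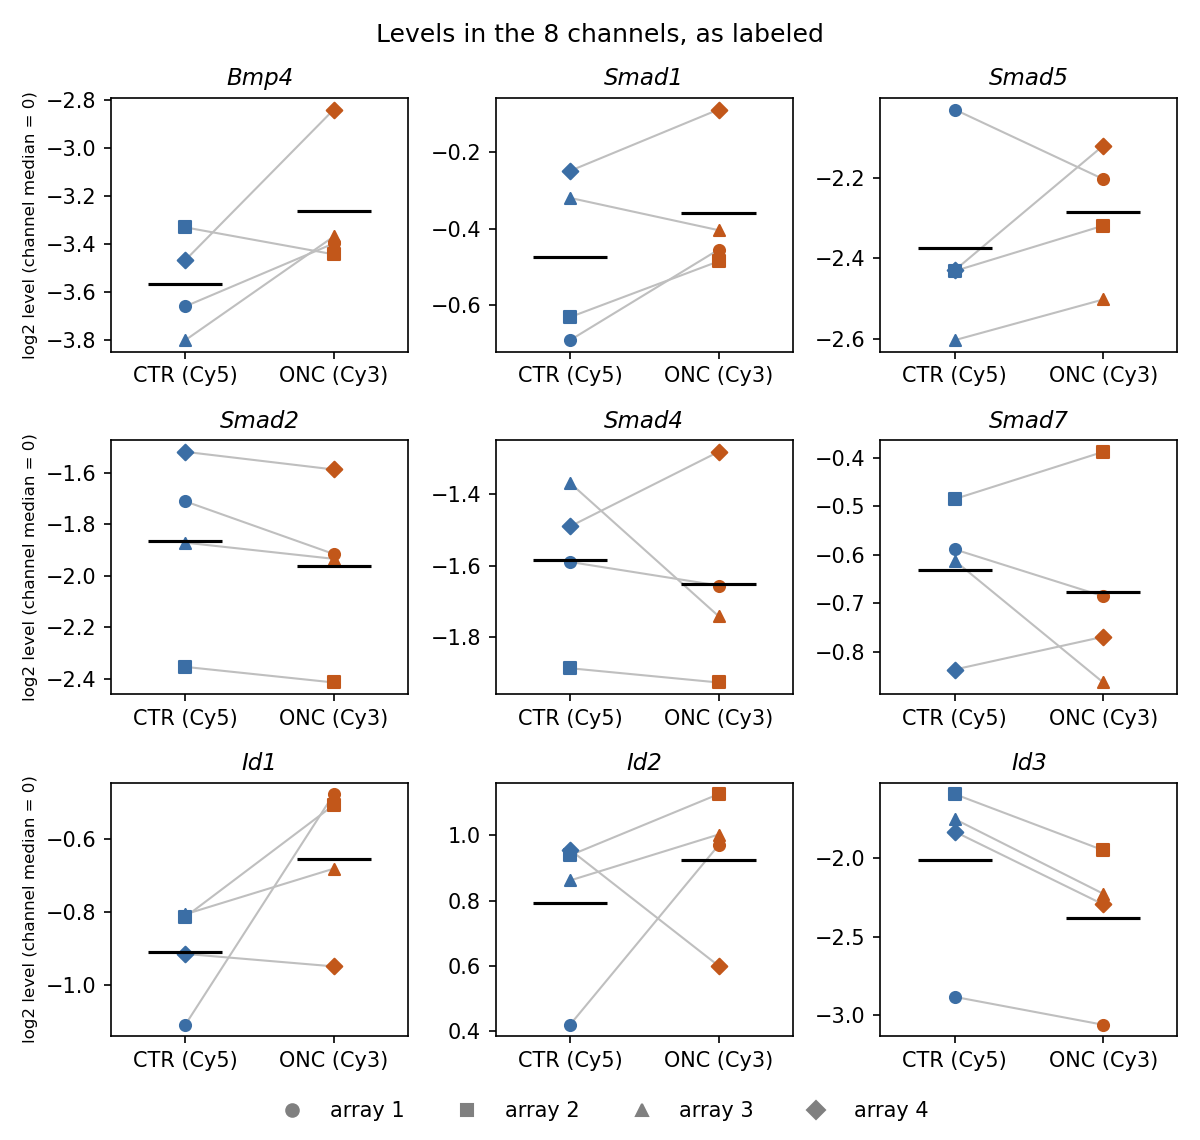
Log2 level of each of the 9 genes in the channels labeled CTR (blue, Cy5) and ONC (orange, Cy3), with 0 at the channel median, a marker shape for each array, gray lines joining the channels of an array, and black bars at the means of 4. The groups overlapped for all 9 genes, after loess Smad2 and Id3 lay lower in the ONC channel on 4 of 4 arrays, and Id3 was lowest in both channels of array 1.

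Bmp4, the ligand, gave a weak signal. Its level was -3.66, -3.33, -3.80 and -3.47 over CTR1 to CTR4 and -3.40, -3.44, -3.37 and -2.84 over ONC1 to ONC4. ONC4 was the highest channel, the other ONC channels lay close together, and the groups overlapped through CTR2. The difference was 0.30 (standard error 0.158, 95% interval -0.055 to 0.66, adjusted p = 0.351 by limma), with ONC higher on 3 of 4 arrays. Without CTR2 and ONC4 it was 0.24 (adjusted p = 0.236), without ONC4 alone 0.16, and in CTR2, CTR4, ONC1 and ONC3, whose dye labels and methods give alike, 0.016. With median scaling in place of loess it was 0.88 and was called (adjusted p = 0.0163). The foreground of the spot was 2.44 to 4.55 times background under the CTR label and 4.67 to 6.09 times under the ONC label. Such a gap held across the arrays, since median background was 55.0 to 56.5 in the CTR channels (Cy5) and 26.0 to 29.5 in the ONC channels (Cy3). Of all spots, 71.9% to 75.0% reached 2 times background per CTR channel and 98.2% to 99.9% per ONC channel. The filter at 2 times background thus acted mainly on the CTR channels. The size of the Bmp4 difference depended on the normalization.

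The Bmp4 probe is shown because its signal was low, and whether that bears on the difference was not tested. It lies on chromosome 15 at chr15:22283362-22283421 on the minus strand, in the coordinates of the array files, whose headers name the build rn4. It reads through in an open frame from its first base. The Smad5 and Id2 probes below it end a coding sequence: capitals mark the last 4 codons before the stop codon in Smad5, the end of the protein that the receptors phosphorylate, and the stop codon in Id2. Each is printed 5′ to 3′.
Bmp4: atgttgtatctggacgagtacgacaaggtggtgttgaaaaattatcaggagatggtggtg
Smad5: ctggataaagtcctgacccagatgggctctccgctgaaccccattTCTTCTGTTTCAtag
Id2: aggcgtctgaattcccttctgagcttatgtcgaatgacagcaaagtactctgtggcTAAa
The Smad5 probe lies at chr17:13814377-13814436 on the minus strand. The Id2 probe spans chr6:42782548-42782897 on the minus strand, so its 60 bases are split over 350 bases of the genome. Whether the other probes lie in coding sequence or in untranslated regions was not determined.

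Smad1, a transducer of BMP signals, was read by 10 spots of a single probe. Its level was -0.69, -0.63, -0.32 and -0.25 over CTR1 to CTR4 and -0.45, -0.49, -0.40 and -0.088 over ONC1 to ONC4. Both channels of array 4 were the highest of their label, and the groups overlapped. The difference was 0.11 (standard error 0.135, 95% interval -0.19 to 0.42, adjusted p = 0.707 by limma), smaller than the spread between retinas. Without CTR2 and ONC4 it was -0.028. The 10 spots differed within a channel by an SD of 0.28 to 0.38, against an SD of 0.22 over the CTR retinas and 0.18 over the ONC retinas.

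Smad5, the other BMP transducer measured, had 2 probes. Its level was -2.03, -2.43, -2.60 and -2.43 over CTR1 to CTR4 and -2.20, -2.32, -2.50 and -2.12 over ONC1 to ONC4. The values of the labels were interleaved, and the difference was 0.088 (standard error 0.137, adjusted p = 0.794 by limma) and 0.013 without CTR2 and ONC4. With median scaling in place of loess it was 0.44 (adjusted p = 0.0692), and it was called when the array was also added as a block, a combination chosen after the data were seen. The probes gave nearly the same difference, 0.090 for the one at the end of the coding sequence and 0.085 for the other, although the second was dim, at 2.37 to 5.27 times its background. That second probe, from a predicted transcript, is rich in G and C, at 68.3%.

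Smad2, which transmits TGF-beta and activin signals, followed the array more than the label. Its level was -1.71, -2.35, -1.87 and -1.52 over CTR1 to CTR4 and -1.92, -2.41, -1.93 and -1.59 over ONC1 to ONC4. Both channels of array 2 were the lowest and both channels of array 4 the highest. The means of the 4 arrays spanned 0.83, a wider span than that of 92.9% of all genes. Within arrays the ONC channel was lower by a little on 4 of 4 arrays, a sign shared by all arrays in 39.4% of all genes. The difference was -0.099 (standard error 0.212, 95% interval -0.58 to 0.38, adjusted p = 0.855 by limma) and -0.39 without CTR2 and ONC4 (adjusted p = 0.210). It turned to 0.056 when channels were only scaled to their median.

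Smad4, the common partner of the receptor-activated Smads, was at -1.59, -1.89, -1.37 and -1.49 over CTR1 to CTR4 and -1.66, -1.93, -1.74 and -1.28 over ONC1 to ONC4. Array 2 was again the lowest in both labels. The difference was -0.067 (standard error 0.158, adjusted p = 0.869 by limma), with ONC higher on 1 of 4 arrays. It was -0.29 without CTR2 and ONC4 (adjusted p = 0.174) and 0.048 with median scaling alone.

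Smad7, the inhibitory Smad, was at -0.59, -0.49, -0.61 and -0.84 over CTR1 to CTR4 and -0.69, -0.39, -0.86 and -0.77 over ONC1 to ONC4. The labels were mixed, with array 2 the highest in both. The difference was -0.046 (standard error 0.123, 95% interval -0.32 to 0.23, adjusted p = 0.888 by limma), and it was 0.034 without CTR2 and ONC4.

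Smad3, the partner of Smad2 in TGF-beta signals, had no spot under its name. A probe filed under a transcript identifier, whose listed accessions include the Smad3 mRNA, was found after the values were seen and lies outside the rule. Its foreground was 1.18 to 1.37 times the background in the CTR channels and 2.45 to 2.88 times in the ONC channels, whose background was lower. It was thus at 2 times or more in 4 of 8 channels, and well above background in 0 of 8. With normexp background correction and no dim filter, the difference of this probe was 0.049 (unadjusted p = 0.840 by limma). A difference in Smad3 was not detectable at this signal.

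Id1 was measured by 10 spots, of which 9 passed. Its level was -1.11, -0.81, -0.81 and -0.91 over CTR1 to CTR4 and -0.48, -0.51, -0.68 and -0.95 over ONC1 to ONC4. ONC1, ONC2 and ONC3 lay above all CTR channels, whereas ONC4 lay among them. The difference was 0.26 (standard error 0.125, 95% interval -0.025 to 0.54, adjusted p = 0.314 by limma), with the ONC channel higher on 3 of 4 arrays. Without CTR2 and ONC4 it was 0.39 (unadjusted p = 0.0114, adjusted p = 0.109). Across spots of the probe the SD within a channel was 0.25 to 0.41.

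**Figure D2:**
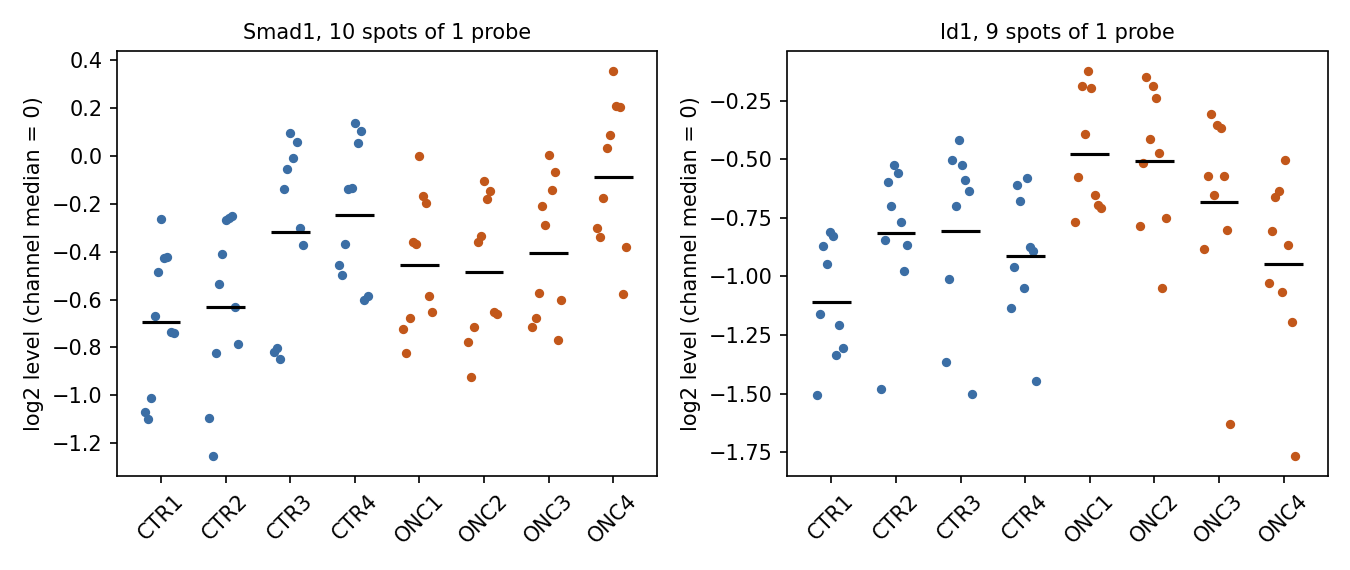
Log2 level of each spot of the Smad1 probe (left) and of the Id1 probe (right) in the 8 channels, CTR in blue and ONC in orange, with 0 at the channel median and black bars at the mean of the spots. The spots of a channel spread by an SD of 0.25 to 0.41, and the Id1 means were higher in ONC1 to ONC3 than in the CTR channels.

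Id2 was read by 1 bright probe that passed. Its level was 0.42, 0.94, 0.86 and 0.96 over CTR1 to CTR4 and 0.97, 1.13, 1.0025 and 0.60 over ONC1 to ONC4. CTR1 and ONC4 were the low channels of their labels, and the groups overlapped. The difference was 0.13 (standard error 0.154, adjusted p = 0.707 by limma) and 0.29 without CTR2 and ONC4 (adjusted p = 0.294). Without CTR1 alone it was 0.0059, and in CTR2, CTR4, ONC1 and ONC3 it was 0.039. A second probe filed under Id2, placed outside the first at chr6:42769872-42769931, was 1.22 to 2.82 times its background and well above it in 0 of 8 channels, so it did not pass.

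Id3 varied most over the arrays of the 9 genes. Its level was -2.88, -1.59, -1.75 and -1.83 over CTR1 to CTR4 and -3.06, -1.95, -2.23 and -2.29 over ONC1 to ONC4. Both channels of array 1 were the lowest by far. The array means spanned 1.20, wider than in 98.1% of all genes, and the probe, a single spot with 18.3% G and C, was 3.67 to 15.55 times its background. Its difference was -0.37 (standard error 0.316, 95% interval -1.08 to 0.34, adjusted p = 0.585 by limma). Leaving out a single retina moved it between -0.66 without CTR1 and -0.14 without ONC1, and in CTR2, CTR4, ONC1 and ONC3 it was -0.93 (adjusted p = 0.396).

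The labels put a CTR and an ONC retina on each array, and Id3 was lower in ONC on 4 of 4 arrays, by -0.18, -0.36, -0.48 and -0.46. With the array as a block, its standard error fell to 0.0763 and it was called (95% interval -0.55 to -0.18, adjusted p = 0.0444), the only one of the 9 genes so called. That fit called 1254 of 16307 genes, or 7.69%, so a count of 1 in 9 is near the background. Other settings were combined with the block after the data were seen. Id3 was called again with normexp background correction (-0.29, adjusted p = 0.0434), and it was not called with the signals as processed by the scanner software (-0.27, adjusted p = 0.156) or with median scaling alone (-0.12, adjusted p = 0.453). Without arrays 1, 2, 3 and 4 in turn its difference was -0.43, -0.37, -0.33 and -0.34, close to that with all arrays, with adjusted p of 0.0695 to 0.200, in fits that called 0 of all genes (3020 to 4473 before adjustment). Without CTR2 and ONC4, and with no block, the difference was -0.26 (adjusted p = 0.708).

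**Figure D3:**
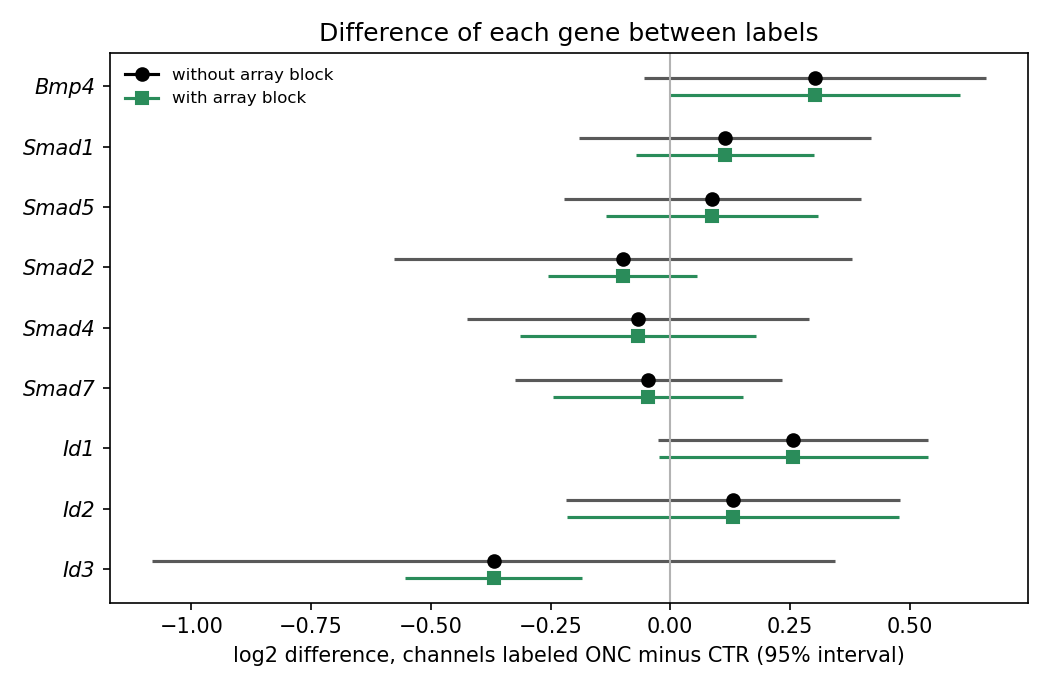
Log2 difference of each gene between channels labeled ONC and CTR with its 95% interval, from limma without the array as a block (black circles) and with it (green squares). All 9 intervals without the block include 0, and with it those of Id3 (-0.55 to -0.18) and, barely, Bmp4 do not.

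The Id genes were set beside the RGC markers, whose part in these differences was not tested. The summed linear level of the 13 markers, in units of the channel median, was 17.6, 47.6, 20.2 and 26.3 over CTR1 to CTR4 and 55.4, 54.8, 56.1 and 21.8 over ONC1 to ONC4, with Stmn2 the brightest. Id1 shared with them the low value in ONC4, but in CTR2, where the markers were high, it was close to the other CTR channels. Id2 was lowest in CTR1 and ONC4, where the markers were low, and highest over ONC1 to ONC3, where they were high, but CTR3 and CTR4, with low markers, were near CTR2. For Id3, the low channels were those of array 1, whose RGC markers were high in ONC1 and low in CTR1.

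**Figure D4:**
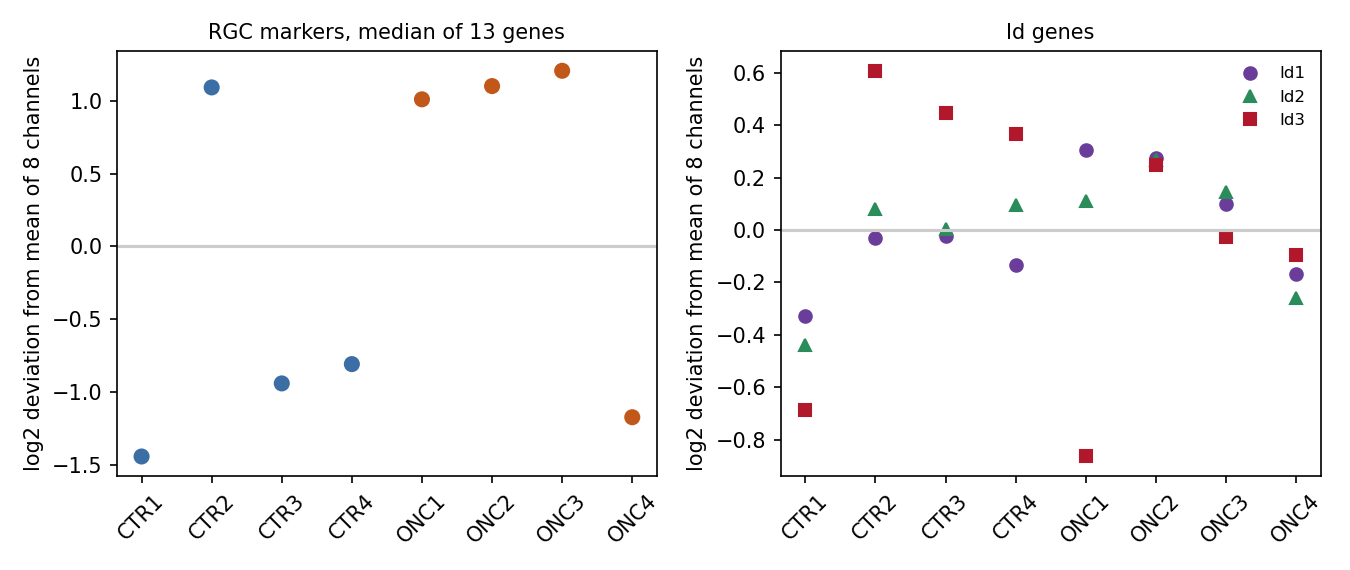
Median log2 deviation of 13 RGC markers (left) and deviations of Id1, Id2 and Id3 (right) from each gene's own 8-channel mean, by channel label. The markers were high in CTR2 and ONC1 to ONC3, between 1.01 and 1.20, and low in the other channels, while Id3 was lowest in both channels of array 1.

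The genes most like Smad1, Id1, Id3 and Bmp4 over the 8 channels were found by Pearson r on log2 levels among 16306 other genes, as a description over channels that share arrays. For Id1 they were Cx3cl1 (r = 0.984), Il34 (r = 0.947) and Lgals1 (r = 0.942). Those most like Id3 were Cadps2 (r = 0.993), Gtf2e1 (r = 0.982) and Rbm6 (r = 0.981). Smad1 was closest to Pa2g4 (r = 0.974), the probe A_64_P046648 (r = 0.974) and Erp44 (r = 0.972), and Bmp4 to Mthfd1 (r = 0.961), Lgi1 (r = 0.936) and Kctd16 (r = 0.915).

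Among 128 genes of the pathway listed by role, with the 10 genes included, 122 were on the array and 87 were measured. limma called 1 of the 87, lower in ONC, beside 0.497% of all genes, and the median difference was -0.0029 against -0.013 over all genes. The gene called was Zfyve9, the anchor that presents Smad2 and Smad3 to the TGF-beta receptor, at -0.61 (standard error 0.102, adjusted p = 0.0449), lower in ONC on 4 of 4 arrays, and at -0.67 without CTR2 and ONC4 (adjusted p = 0.0445). Leaving out any single retina brought the pathway count to 0. With the array as a block, 7 were called, 2 higher and 5 lower, a share of 8.05% beside the 7.69% of all genes, so the count is near the background. Besides Id3 and Zfyve9 (adjusted p = 0.0285) these were the receptor Tgfbr1 at -0.39 (adjusted p = 0.0380), the corepressor Tgif2 at -0.40 (0.0371), the target Junb at -0.59 (0.0449), and, higher, the antiproliferative regulator Tob1 at 0.41 (0.0318) and the kinase Hipk2 at 0.64 (0.0424). Each had its sign on 4 of 4 arrays, and the count with the block was 0 when any array was left out.

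Of 27 ligands listed, Bmp4 included, 15 were measured and 0 were called without or with the block. With all channels Bmp4 had the largest difference upward and Gdf6 the largest downward, at -0.36. Bmp2 was at -0.26, Bmp7 at -0.16, Tgfb2 at 0.14 and Tgfb3 at 0.12, whereas Bmp6 and Tgfb1 did not pass the filter. With CTR2 and ONC4 left out, Gdf6 was at -0.63, Bmp2 at -0.35, Bmp7 at -0.19, Tgfb2 at 0.018 and Tgfb3 at 0.15. Gdf11 was then the largest upward at 0.26, above Bmp4 at 0.24. Among 11 receptors and coreceptors, the BMP receptors gave -0.037 for Bmpr1b, 0.072 for Bmpr1a and 0.32 for Bmpr2, with adjusted p of 0.964, 0.845 and 0.142, and Acvr2b had the largest difference upward at 0.34, which rested on a low level in CTR2 and was -0.20 without CTR2 and ONC4. Without those channels Bmpr1b was at -0.48, Bmpr1a at -0.020 and Bmpr2 at 0.27. Acvr1 and Tgfbr2 did not pass. With all channels Tgfbr1 was the largest downward, and the decoy receptor Bambi was at -0.0029. Without CTR2 and ONC4 Tgfbr1 was at -0.32 and Bambi at -0.11. Eng, of the same list and named after its value was seen, was then the largest downward at -0.67.

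Among 17 extracellular regulators, 0 were called. The BMP antagonists Nog and Chrd were at 0.070 and 0.20, and Bmp1 was the largest downward at -0.45 (-0.63 without CTR2 and ONC4, adjusted p = 0.0483). The remaining Smads were Smad6, an inhibitor of BMP signals, at -0.15, and Smad9, which was at 2 times its background in 4 of 8 channels and well above it in 0. In the group of Smad regulators, with 21 measured, the ubiquitin ligases Smurf1 and Smurf2 were at 0.14 and -0.21, and at -0.062 and -0.25 without CTR2 and ONC4. Hipk2 was the largest upward and Zfyve9 the largest downward there. Of 17 measured targets, Gadd45b was the largest downward with all channels, at -0.98 (adjusted p = 0.0942; -1.15 without CTR2 and ONC4) and Id1 the largest upward. Without CTR2 and ONC4 the largest fall was that of Tgfbi, named after its value was seen, which went from -0.87 to -1.66 and was called (adjusted p = 0.0196). Id4, another Id gene, was well above background in 8 of 8 channels but was at 2 times background in 7 of them and did not pass; its local background reached 1799.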

How the data were processed

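The authors deposited spot intensity values of 4 arrays as written by the scanner software (Feature Extraction 12.0.3.1 per the file headers, 11.1.19.1 per the submitters' notes): mean foreground and median local background, uncorrected, and a processed, dye-normalized signal. A further 69 measurement columns per file were not used. Channels took the group of their label. Control spots, spots with outlier flags and spots dimmer than 2 times background in at least 1 channel were removed, keeping 27371 spots, 18599 probes and 16307 genes. Background was subtracted, arrays were normalized by loess (span 0.3), channels were centered on their median, and spots, then probes, were averaged per gene. All genes were fitted by limma 3.58.1 (R 4.3.3), two-sided, with Benjamini-Hochberg adjustment and no block, since the methods used an unpaired test. The code was tested on simulated data. Deviations of same-numbered channels, which the labels put on a shared array, correlated at 0.149, 0.549, 0.401 and 0.487 on arrays 1 to 4, against at most 0.171 between differently numbered channels of opposite label, which for array 1 exceeds the shared-array value. The array was also fitted as a block, on the pairing the labels give. Other alternatives changed the normalization, the background correction, the filter, the probe used, the test and the channels included. Median foreground was 218.1 to 626.0 per channel, with 66.8% to 79.4% of spots well above background and 0 saturated, and the number of arrays limits the precision. Genes named are the 10, 20 pathway genes whatever their values, pathway genes called without or with the block, genes with the largest rise or fall in a role, and the 3 genes most alike to each of Smad1, Id1, Id3 and Bmp4. Markers of 13 cell types were counted. Names were matched by symbol, and 11 listed names were not on the arrays. The members and lists were chosen with earlier results of these data known.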

Additional observations from a re-analysis of the deposited data

Results flagged for a closer look

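The check covered 44 groups of 4 channels (the 9 genes and 13 marker lists, each in both labels). In 2 of them a channel's gap to the nearest other, divided by the range of the 4, exceeded Dixon's 95% critical value. That is about as many as chance flags at 1 in 20 groups, a count that does not tell whether either flag arose by chance. The Bmp4 level in ONC4 was -2.84, above -3.44 to -3.37 in the other ONC channels. The median deviation of the RGC markers in ONC4 was -1.17, below 1.01 to 1.20 in the other ONC channels. Both lie in the channel with the lowest median foreground, 218.1, and whether that bears on them was not tested.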

How the results depend on the processing

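Id1, Id2, Id3, Smad5 and Bmp4 kept the sign of their difference under each of the 20 alternatives to the chosen processing, though Id2, Smad5 and Bmp4 came close to 0 in some, and Smad1, Smad2, Smad4 and Smad7 did not keep it. Median scaling in place of loess called 3194 genes in place of 81, 71.0% of them higher in ONC against 46.9%. It called 1 of the 9 genes (Bmp4 at 0.88) and 18 pathway genes in place of 1. At an unadjusted p under 0.05 it had 5767 of 16307 genes and 3 of the 9 (Bmp4, Id1 and Smad5). There Smad2 turned to 0.056 and Smad4 to 0.048. Genes called were 412 with Aquantile, 146 with spots well above background alone and 124 with the brightest probe. They were 21 with the processed signals, where Smad7 turned to 0.060, 14 with normexp and 0 by limma with normexp and no dim filter together (1957 at an unadjusted p under 0.05), each with 0 pathway genes. The methods' test, without the study's fold-change threshold per gene, called 2682 genes and 11 of the pathway before adjustment and 0 and 0 after it.

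The array block called 1254 genes, 1 of the 9 (Id3, -0.37) and 7 pathway genes, and it changed no other call among the 9. At an unadjusted p under 0.05 it had 5097 of 16307 genes and 2 of the 9 (Id3 and Bmp4). Chosen after seeing the data, the block with median scaling gave 5371 genes, 2 of the 9 (Smad5 and Bmp4) and 28 pathway genes. There 7458 genes and 3 of the 9 had an unadjusted p under 0.05. The block with processed signals gave 0 genes (4371 at an unadjusted p under 0.05) and 0 of the pathway, with 2 of the 9 at an unadjusted p under 0.05. The block with normexp gave 1677 genes, 1 of the 9 (Id3, -0.29) and 10 of the pathway, with 5176 genes and 1 of the 9 at an unadjusted p under 0.05. With the block and an array left out, limma called 0 genes and 0 of the pathway (3020 to 4473 genes at an unadjusted p under 0.05), and 1, 2, 1 and 3 of the 9 had an unadjusted p under 0.05 without arrays 1, 2, 3 and 4.

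Leaving out each retina gave 0 to 38 genes by limma, 38 without ONC2 and 0 without any other, with 2085 to 3252 at an unadjusted p under 0.05, 0 pathway genes, and 0 to 1 of the 9 at an unadjusted p under 0.05 (Id3 without CTR1, Bmp4 without CTR2, Id1 without ONC4). Id1 then ranged from 0.19 to 0.35, Id2 from 0.0059 (without CTR1) to 0.24, Smad5 from 0.011 (without CTR3) to 0.20, Bmp4 from 0.16 to 0.38, Smad1 from 0.025 to 0.19, Id3 from -0.66 to -0.14, Smad2 from -0.26 to 0.051, Smad4 from -0.19 to 0.024 and Smad7 from -0.14 to 0.017. Without CTR2 and ONC4 limma called 415 genes and 4 pathway genes, with Smad1 at -0.028 and Smad7 at 0.034. In that fit 3888 genes and 2 of the 9 (Smad4 and Id1) had an unadjusted p under 0.05. In the 4 channels whose dye both sources give alike, limma called 0 genes and 0 of the pathway (1961 genes at an unadjusted p under 0.05), 1 of the 9 (Id3) had an unadjusted p under 0.05, and Smad2 was at 0.011. The cause of these changes was not tested. Signal over background was low for Bmp4, the second Smad5 probe and the Smad3 probe.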

Other observations

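Markers of other cells were counted between the labels as well. Of 120 marker genes measured in 13 lists, limma called 1, or 0.833%, beside 0.497% of all genes: Isl1, which is in the RGC and the bipolar list and was named after its value was seen. Below, each list is given by the markers higher or lower in ONC and by its median difference, with all channels and then without CTR2 and ONC4.

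Of 13 RGC markers, 12 were higher (median 1.15). CTR2 and ONC4 were singled out by these same markers, so leaving them out had to raise the difference (2.22, with 11 of 13 called). Of 9 bipolar markers, 8 were higher (0.23, then 0.17), as were 7 of 8 pigment epithelium markers (0.11, then -0.017). Of 12 microglial markers, 11 were lower (-0.38, then -0.62). Lower were also 7 of 8 reactive glial markers (-0.39, then -0.65) and 8 of 11 lens and cornea markers (-0.35, then -0.17), the last highest in CTR2, at 1.22 above the mean of the 8 channels.

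Higher were 5 of 11 markers for Müller glia (-0.099, then -0.20), 6 of 10 for endothelium (0.066, then -0.072) and 3 of 8 for pericytes (-0.067, then -0.12). The same counts were 4 of 9 for rods (-0.14, then -0.35 with 1 of 9 higher), 2 of 7 for cones (-0.28, then -0.29), 4 of 9 for amacrine cells (-0.015, then -0.044) and 2 of 6 for horizontal cells (-0.048, then -0.15). Beside the RGC markers and Isl1, limma without CTR2 and ONC4 called 3 microglial markers (P2ry12, C1qc and Laptm5) and 1 of Müller glia (Sox9), among 415 of 16307 genes. Markers called with the array as a block, a fit that called 7.69% of all genes, included 3 of Müller glia (Slc1a3, Vim and Dbi) and 2 of cones (Opn1mw and Pde6h). The others were 1 of rods, Abcc9, Slc6a9 and Isl1. These genes were named after their values were seen. The part of these cells in the values of the Smad and Id genes was not tested.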
